A study of Oryza sativa with 12 samples.

Results

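Spikelets of 2 rice (Oryza sativa) cultivars were compared at 38 °C, with 3 libraries of BR-IRGA 409, which the labels call tolerant to heat, against 3 libraries of IRGA 428, which they call sensitive. These 6 libraries were all those labelled with the high temperature treatment, out of 12 in the series; the other 6 came from the same cultivars at 29 °C. Both groups had grown in a greenhouse until the panicles emerged and were then kept in growth chambers at 38 °C for 7 h of the day on 3 days at anthesis. Spikelets from the middle part of the panicle were frozen when the treatment ended, and each library was made from 2 plants. Each cultivar is 1 genotype, so any feature in which the cultivars differ, heat tolerance included, goes together with all the others. The comparison asked which transcripts differed between the spikelets of the tolerant and the sensitive cultivar while both were under heat.

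Anthesis, when the rice flower opens, the anthers split and pollen lands on the stigma, is the stage at which heat most readily makes spikelets sterile. Heat at this stage is known to hinder anther opening, pollen shedding and pollen germination, and plant cells meet it with heat shock factors that switch on genes for heat shock proteins, the chaperones that keep other proteins folded. Cultivars can differ in a transcript because a gene is missing or broken in one of them, because its regulatory sequence differs, or because the plants are in a different state. A read count per gene does not tell these apart, nor a lower level from a sequence too different from the reference for reads to align. The deposited files give gene IDs without names or functions, so heat shock genes, pollen genes and tissue markers could not be identified and the labelled tissue could not be checked against markers. The genes are described here by level, by size of difference and by the chromosome number read from the ID.

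Sequencing depth, as counts assigned to genes, was 16.5, 20.7 and 27.0 M (M, 1000000 counts) in IRGA 428 replicates 1, 2 and 3, and 39.0, 45.8 and 75.4 M in those of BR-IRGA 409. All BR-IRGA 409 libraries were thus deeper (exact two-sided permutation p = 0.1, the smallest possible with 3 against 3). Multiply aligned reads were 5.15% ± 0.173 (SD, n = 3) of all reads in BR-IRGA 409 and 4.55% ± 0.393 in IRGA 428, without overlap (exact permutation p = 0.1). The 10 most abundant genes of each library held 4.53% ± 0.209 of the gene counts in BR-IRGA 409 and 5.17% ± 0.344 in IRGA 428, also without overlap (exact permutation p = 0.1). The share of reads that were not aligned was close, 10.4% ± 0.143 and 10.3% ± 0.0702 (exact permutation p = 0.7). With each library thinned to the smallest, 26984 ± 130.3 genes had a count in BR-IRGA 409 and 27150 ± 44.1 in IRGA 428 (exact permutation p = 0.2). The file names of BR-IRGA 409 alone carry the word new; what it means is not known here, and whatever it marks cannot be told apart from cultivar.

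Among the 6 libraries, the cultivar was the main axis of variation, and 1 library stood apart from its group. The first principal component of log2 CPM (counts per 1000000, scaled between libraries) accounted for 68.3% of the variance, with the IRGA 428 libraries at −77.5 to −68.9 and those of BR-IRGA 409 at 60.4 to 82.1. The second component (18.6%) set IRGA 428 replicate 1, at 66.0, apart from replicates 2 and 3, at −37.7 and −36.2. On this component BR-IRGA 409 replicates 1, 2 and 3 lay at −23.8, 30.1 and 1.59. The biological coefficient of variation between IRGA 428 replicates 2 and 3 was 0.115, against 0.266 and 0.268 between either of them and replicate 1. Between that library and IRGA 428 control replicate 3, which is labelled 29 °C, it was 0.0792, lower than for any pair within the 6 libraries. In BR-IRGA 409 the pairs lay at 0.138 to 0.242, and between the cultivars the coefficient was 0.346 to 0.472. Totals of called genes, the named genes, the shares called on some chromosomes and the agreement with 29 °C are given with and without IRGA 428 replicate 1. Shares of counts, classes by level and abundance, bounds, genes with 0 counts and runs of neighbours are given only with it.

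The cultivars differed under heat in 1724 of 22960 tested genes, which is 7.51% (edgeR's quasi-likelihood test on these 6 libraries, Benjamini-Hochberg adjusted p below 0.05). The directions were nearly balanced, with 873 genes higher in BR-IRGA 409 (3.8% of tested genes) and 851 higher in IRGA 428 (3.71%). A gene was tested when it passed a filter on low counts, as 22960 of the 57174 listed genes did, and these held at least 99.9% of the gene counts of every library. At least a 2-fold difference was found for 1160 called genes (5.05% of tested genes), 561 higher in BR-IRGA 409 and 599 in IRGA 428. A difference of 4-fold or more was found for 677 and of 10-fold or more for 473. Each of these counts includes 195 genes with 0 counts in the lower cultivar, whose fitted value is no measure of size. Of the 473, 82 had 1 to 3 counts there and 181 had more but stayed below 1 CPM. Only 15 of them had a mean of at least 1 CPM in both cultivars. The median log2 difference (BR-IRGA 409 over IRGA 428) was 1.33 for genes higher in BR-IRGA 409 and −1.64 for genes higher in IRGA 428, against −0.0197 over all tested genes. The sizes were uneven, with quartiles of the absolute log2 difference of called genes at 0.839 and 3.72. Medians and quartiles include the 195 genes with 0 counts in the lower cultivar.

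**Figure D1:**
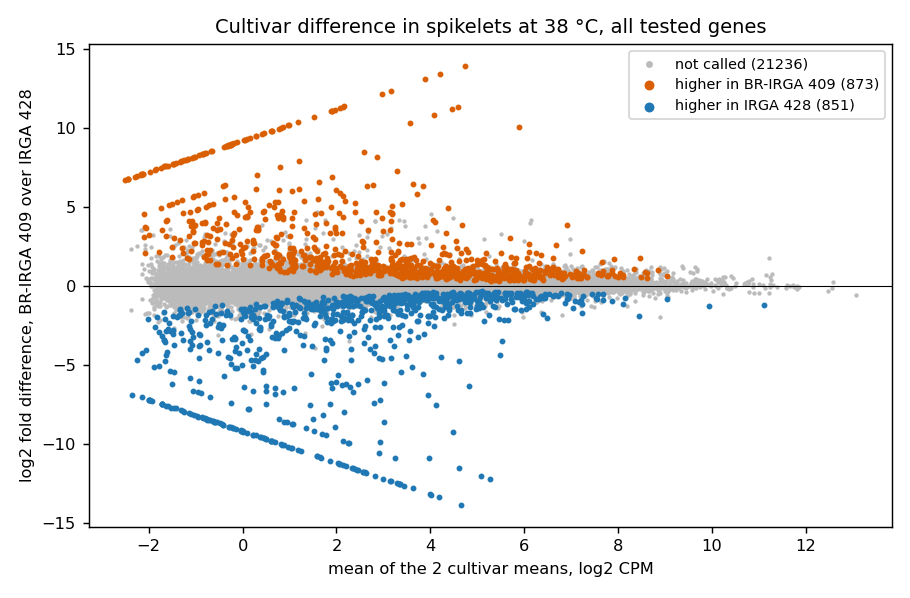
Each point is a tested gene; the x axis gives the mean of both cultivars in log2 CPM and the y axis the log2 fold difference of BR-IRGA 409 over IRGA 428 at 38 °C. The 873 genes higher in BR-IRGA 409 are orange and the 851 higher in IRGA 428 blue; the slanted lines at the upper and lower edges are genes with 0 counts in a cultivar, whose fitted value depends on a small added count and is no measure of size.

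The genes that were called made up a small part of the RNA. Genes higher in BR-IRGA 409 held 3.26% ± 0.238 (SD, n = 3) of the counts in that cultivar and 1.69% ± 0.0819 in IRGA 428. Genes higher in IRGA 428 held 2.47% ± 0.0340 of the counts there and 1.16% ± 0.0867 in BR-IRGA 409. These shares follow from how the genes were chosen and are a description. In all, the 1724 genes held 4.41% ± 0.154 of the counts in BR-IRGA 409 and 4.16% ± 0.0986 in IRGA 428.

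Called genes ranged from those nearly without reads in a cultivar to those read in both at different levels. In the cultivar with the lower level, 195 called genes had 0 counts over the 3 libraries, out of 196 such genes tested. With 1 to 3 counts there, 84 of 88 tested genes were called. Of these 195 and 84 genes, 85 and 42 were higher in BR-IRGA 409, and 110 and 42 in IRGA 428. Genes this low passed the filter through the other cultivar, so that nearly all were called largely follows from how they were chosen. Above 3 counts but below 1 CPM in the lower cultivar, 404 of 3150 tested genes were called. The largest class, 1041 genes or 60.4% of those called, had a mean of at least 1 CPM in both cultivars, with 560 higher in BR-IRGA 409 and 481 in IRGA 428. Of the 19526 tested genes at that level, 5.33% were called. Their median absolute log2 difference was 0.953, and 477 reached 2-fold, 90 reached 4-fold and 15 reached 10-fold.

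**Figure D2:**
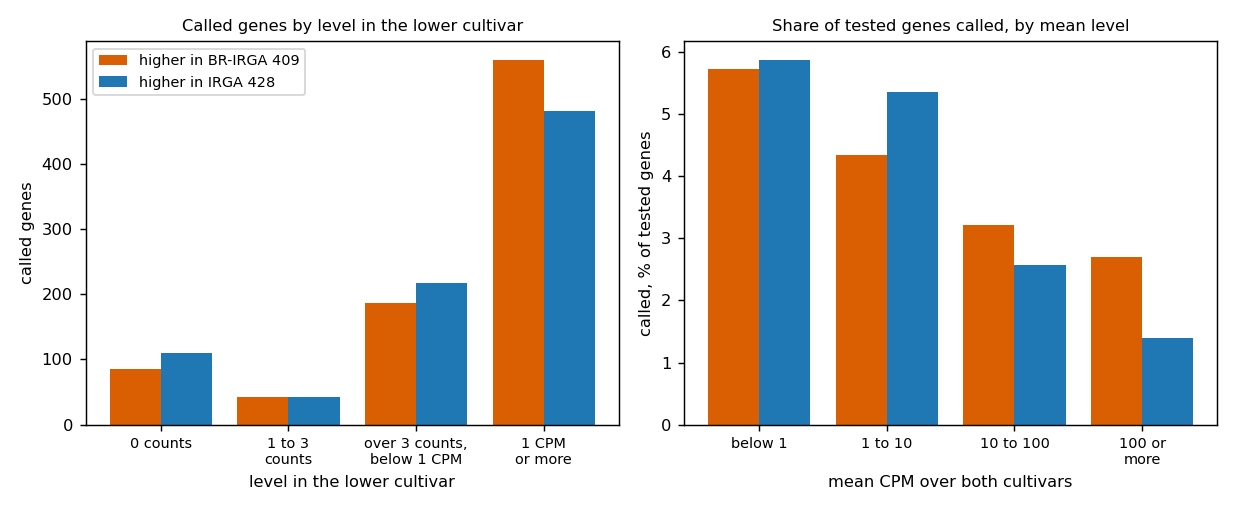
The left panel counts called genes (y axis) by their level in the cultivar where they were lower (x axis), and the right panel gives called genes as a percent of tested genes by mean CPM over both cultivars. Orange bars are genes higher in BR-IRGA 409 and blue bars genes higher in IRGA 428; the 1041 genes at 1 CPM or more in both cultivars form the tallest pair, and the share called is lowest at 100 CPM or more.

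The share of genes called was lower among abundant transcripts, although these were measured more precisely than genes below 10 CPM. A gene nearly absent from a cultivar could pass the filter through the other cultivar alone, and its absence lowers its mean level. Part of the higher share in the low classes thus follows from how genes were filtered and classed, and how much was not tested. Below a mean of 1 CPM 11.6% of 2620 tested genes were called, at 1 to 10 CPM 9.69% of 7097, at 10 to 100 CPM 5.78% of 11243, and at 100 CPM or more 4.1% of 2000. The median standard error (SE) of the log2 difference was 0.431, 0.243, 0.129 and 0.142 in the same order. The balance of directions differed between the classes and was not tested. Below 1 CPM, 150 called genes had the higher level in BR-IRGA 409 and 154 in IRGA 428. From 1 to 10 CPM, 308 called genes had the higher level in BR-IRGA 409 and 380 in IRGA 428, while at 10 to 100 CPM these counts were 361 and 289, and at 100 CPM or more 54 and 28. Of the called genes, 85.0% reached 2-fold at 1 to 10 CPM and 23.2% at 100 CPM or more; where the SE is larger, a gene needs a larger difference to be called, so these shares do not compare the sizes of the differences.

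For most genes that were not called, a large difference between the cultivars could be bounded. The 95% interval of the log2 difference, not adjusted for the number of genes, lay inside 2-fold in either direction for 15337 of 21236 genes (72.2%). Every edgeR SE given here was worked back from the log2 difference and the F statistic of its test, so the intervals are approximate. For the remaining 5899 the interval reached past 2-fold, so that these libraries do not show whether the cultivars differed by that much. The share bounded within 2-fold was 12.4% below 1 CPM, 59.9% at 1 to 10 CPM, 90.1% at 10 to 100 CPM and 87.2% at 100 CPM or more.

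By the rule for naming IDs, 2 genes in each direction were taken, those with the largest log2 difference among called genes with a mean of at least 1 CPM in both cultivars and no overlap between libraries. MH02g0485800, whose ID carries chromosome number 2, had 1340, 2037 and 3048 counts in BR-IRGA 409 replicates 1 to 3, or 35.4, 44.2 and 41.9 CPM. In IRGA 428 the same gene had 12, 41 and 34 counts, or 0.717, 1.93 and 1.24 CPM. The lowest BR-IRGA 409 library was thus far above the highest IRGA 428 library. The means were 40.5 ± 4.58 CPM (SD, n = 3) and 1.30 ± 0.610 CPM, a log2 difference of 4.94 (SE 0.29, edgeR adjusted p = 0.000184).

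MH02g0395600, also numbered chromosome 2, had 1543, 1119 and 2181 counts in BR-IRGA 409 (40.7, 24.3 and 30.0 CPM). In IRGA 428 it had 19, 41 and 56 counts (1.13, 1.93 and 2.04 CPM). Replicate 1 was the highest library of BR-IRGA 409 and the lowest of IRGA 428, and the groups did not overlap. The means were 31.7 ± 8.35 and 1.70 ± 0.494 CPM (SD, n = 3), a log2 difference of 4.19 (SE 0.28, edgeR adjusted p = 0.000293).

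In the other direction, MH10g0254000, numbered chromosome 10, had 841, 899 and 1315 counts in IRGA 428 (50.2, 42.4 and 47.9 CPM). Its values in BR-IRGA 409 were 77, 63 and 132 counts (2.03, 1.37 and 1.81 CPM). The libraries of each cultivar were close to each other and the groups far apart, at 46.8 ± 4.03 and 1.74 ± 0.339 CPM (SD, n = 3). The log2 difference was −4.75 (SE 0.17, edgeR adjusted p = 3.4e-05).

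MH11g0538300, numbered chromosome 11, had 502, 836 and 1033 counts in IRGA 428 (30.0, 39.4 and 37.6 CPM). Its values in BR-IRGA 409 were 27, 76 and 167 counts (0.713, 1.65 and 2.29 CPM), so that its low level there varied more than that of MH10g0254000. The means were 35.7 ± 5.01 and 1.55 ± 0.795 CPM (SD, n = 3), a log2 difference of −4.48 (SE 0.38, edgeR adjusted p = 0.000772). All 4 genes kept their direction and stayed called in each of 17 alternative settings. They were chosen for the largest differences in the same libraries, so this largely follows from the choice. Without IRGA 428 replicate 1 the log2 differences were 4.697, 3.99, −4.698 and −4.58, in the order given. Near-identical gene copies could share or lose reads at any of these IDs, which was not tested.

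**Figure D3:**
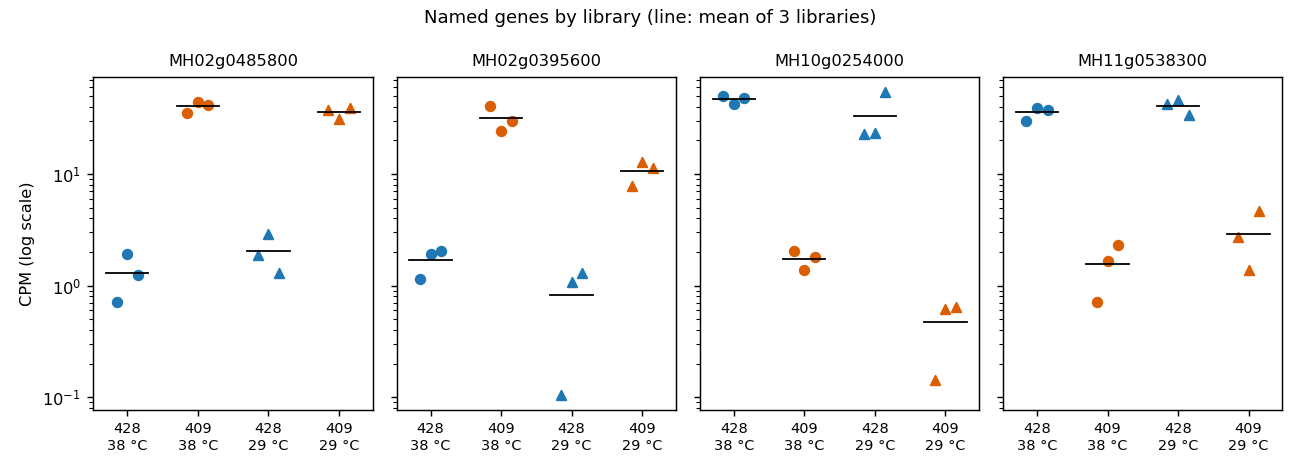
Each panel is a named gene and each point a library, with CPM on a log y axis and the groups on the x axis; IRGA 428 is blue, BR-IRGA 409 orange, circles are 38 °C, triangles 29 °C and lines the means of 3 libraries. MH02g0485800 and MH02g0395600 were higher in every BR-IRGA 409 library and MH10g0254000 and MH11g0538300 in every IRGA 428 library, at both temperatures.

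Genes with no reads at all in a cultivar were taken as a class of their own, from all listed genes. Of 20159 genes at a mean of 1 CPM or more in BR-IRGA 409, 53 (0.263%) had 0 counts in all 3 IRGA 428 libraries. Another 23 had 1 to 3 counts there. Of 20205 genes at that level in IRGA 428, 90 (0.445%) had 0 counts in all 3 BR-IRGA 409 libraries. Another 32 had 1 to 3 counts there. A count of 0 allows up to 3 counts over a group, which is 0.0459 CPM for IRGA 428 and, with its deeper libraries, 0.0191 CPM for BR-IRGA 409 (counting error only). Thinning all libraries to the smallest gave 55 and 110 genes (0.273% and 0.543%), so the larger number in IRGA 428 was also there at equal depth.

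Most of these genes were of low abundance. The median level was 2.24 CPM for the 53 genes read only in BR-IRGA 409 and 3.03 CPM for the 90 read only in IRGA 428, and 13 and 33 of them reached 5 CPM. The most abundant of the 53 had 2823, 1871 and 3245 counts in BR-IRGA 409 (74.5, 40.6 and 44.6 CPM), at least 1161-fold higher than the group floor in IRGA 428. The most abundant of the 90 had 760, 1148 and 1434 counts in IRGA 428 (45.4, 54.1 and 52.2 CPM), at least 2642-fold higher than the floor in BR-IRGA 409. The libraries at 29 °C, which had no part in choosing these genes, gave nearly the same picture. Of the 53 genes, 45 had 0 counts in IRGA 428 at 29 °C too and the other 8 had at most 1 count, while 44 of 53 had at least 1 CPM in BR-IRGA 409. Of the 90 genes, 82 had 0 counts in BR-IRGA 409 at 29 °C, the other 8 had at most 2 counts, and 79 of 90 had at least 1 CPM in IRGA 428.

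Called genes were spread unevenly over the chromosome numbers in the IDs, which the files do not explain and which are read here as chromosomes. Against 7.51% of all tested genes, 17.8% were called on chromosome 12 (222 of 1248), 11.7% on chromosome 11 (159 of 1360), 9.69% on chromosome 10 and 9.65% on chromosome 4. The lowest shares were 3.97% on chromosome 7 (71 of 1788) and 4.6% on chromosome 5 (86 of 1870). The genes with 3 counts or fewer in a cultivar were part of this but not all of it. With them apart, 13.1% of tested genes on chromosome 12 were called above 3 counts in both cultivars and 7.72% on chromosome 11, next to 3.75% on chromosome 7. On chromosome 11, called genes with 3 counts or fewer in a cultivar made up 3.97% of those tested and on chromosome 12 4.65%, against 0.0535% on chromosome 5. Nearly all tested genes this low were called, having passed the filter through the other cultivar. These shares thus largely give where such genes lie. No test was made, since genes on a chromosome are not independent.

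Direction differed among chromosomes as well. On each of chromosomes 9, 10, 11 and 12 more called genes were higher in IRGA 428, with 39.2%, 39.7%, 41.5% and 43.7% higher in BR-IRGA 409. On chromosomes 1, 2, 3, 5, 6, 7 and 8 the share higher in BR-IRGA 409 was 50.9% to 61.6%, and on chromosome 4 it was 48.9%. Without IRGA 428 replicate 1 the shares of tested genes called were 19.4% on chromosome 12, 13.2% on chromosome 11, 11.5% on each of chromosomes 4 and 10, and 5.4% on chromosome 7. The 29 °C libraries, in a fit of their own, gave 8.8% on chromosome 12 and 5.07% on chromosome 11 against 2.28% of all genes tested there, with 0.433% on chromosome 7. There, more called genes were again higher in IRGA 428 on chromosomes 9 (13 against 2), 10 (27 against 9), 11 (37 against 23) and 12 (62 against 38). The direction on chromosomes 1, 3, 4 and 6 was not that at 38 °C. At 29 °C these had 17, 9, 31 and 9 called genes higher in BR-IRGA 409 and 21, 21, 30 and 10 higher in IRGA 428.

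**Figure D4:**
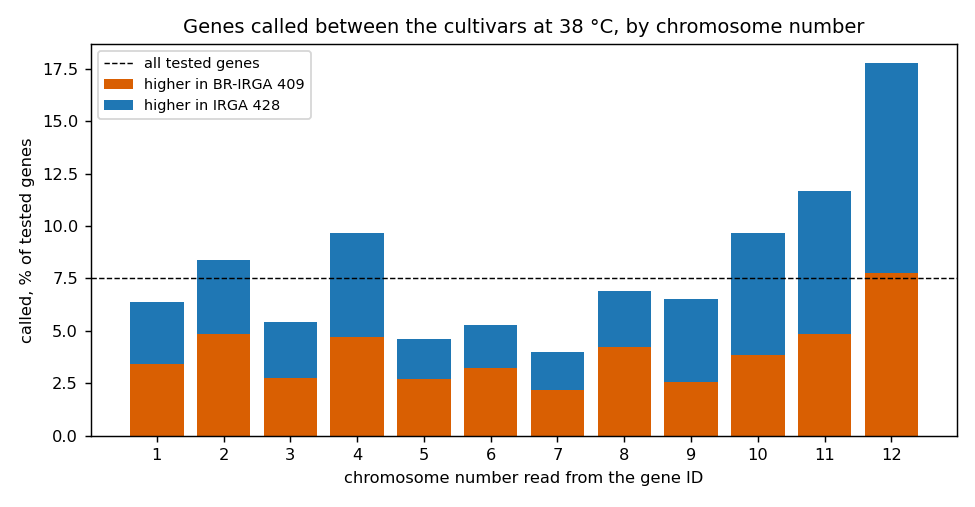
Called genes as a percent of tested genes (y axis) for each chromosome number read from the gene ID (x axis), with genes higher in BR-IRGA 409 in orange and those higher in IRGA 428 in blue stacked on them. The dashed line is the 7.51% called over all tested genes; chromosome 12 stands at 17.8% and chromosome 7 at 3.97%.

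Called genes also had called neighbours, when the order of the IDs is read as the order along a chromosome. Of 1721 called genes with a next tested ID on the same chromosome number, 292 (17.0%) were followed by a gene called in the same direction and 134 (7.79%) by a gene called in the opposite one, beside shares of 3.8% and 3.71% of tested genes for the directions. Unbroken runs of at least 3 called genes in a direction numbered 58, 33 higher in IRGA 428 and 25 in BR-IRGA 409, and held 225 genes. Of the 10 runs of at least 5 genes, 6 were on chromosomes 11 and 12. The longest had 11 neighbouring tested genes on chromosome 10, all higher in IRGA 428. Their mean levels were 1.04 to 31.9 CPM in IRGA 428 and 0 to 0.162 CPM in BR-IRGA 409. Being this low in BR-IRGA 409, they passed the filter through IRGA 428. That they were called in this direction thus largely follows from how genes were filtered. In the 29 °C libraries 9 of the 11 were tested, 9 had the same direction and 7 were called.

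To see whether differences under heat also stood in plants that had not been heated, the 29 °C libraries were fitted alone, sharing no library and no estimate of spread with the fit at 38 °C. The libraries at 29 °C were shallower, at 7.08 to 16.4 M gene counts, and 474 of 20826 genes were called there (2.28%), 205 higher in BR-IRGA 409 and 269 in IRGA 428. Of the 1724 genes called at 38 °C, 1462 could be tested at 29 °C, and 1324 of these (90.6%) had the same direction, beside 64.2% of all genes tested at both temperatures. The 429 genes called in both fits all had the same direction; they were 24.9% of the list at 38 °C and 90.5% of the list at 29 °C. The median log2 difference at 29 °C was 0.624 for the 735 genes higher in BR-IRGA 409 at 38 °C, where their median was 1.14. For the 727 genes higher in IRGA 428 these medians were −1.01 and −1.38. Medians at 38 °C come from genes chosen there, which enlarges them. Without IRGA 428 replicate 1 at 38 °C and the control library it resembled, 1581 of 1879 genes (84.1%) had the same direction, beside 62.2% of all genes, and the 473 genes called in both fits again all had the same direction.

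The share of genes with the same direction varied with the size of the difference and with the cultivar that was higher. Of the genes with at least a 2-fold difference at 38 °C, 403 of 423 higher in BR-IRGA 409 and 459 of 475 higher in IRGA 428 had the same direction at 29 °C, and 276 and 349 were again at least 2-fold. Of genes called with less than 2-fold, 234 of 312 higher in BR-IRGA 409 (75%) had the same direction at 29 °C, and 228 of 252 higher in IRGA 428 (90.5%). Among all genes tested at both temperatures 45.5% had the higher level in BR-IRGA 409 at 29 °C and 54.5% in IRGA 428. Whether the shares differ between the directions was not tested. For the named genes the log2 differences at 29 °C were 4.13 (SE 0.30), 3.58 (SE 0.57), −6.03 (SE 0.58) and −3.86 (SE 0.41) for MH02g0485800, MH02g0395600, MH10g0254000 and MH11g0538300. Their edgeR adjusted p-values in that fit were 0.00113, 0.0277, 0.00377 and 0.00547.

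**Figure D5:**
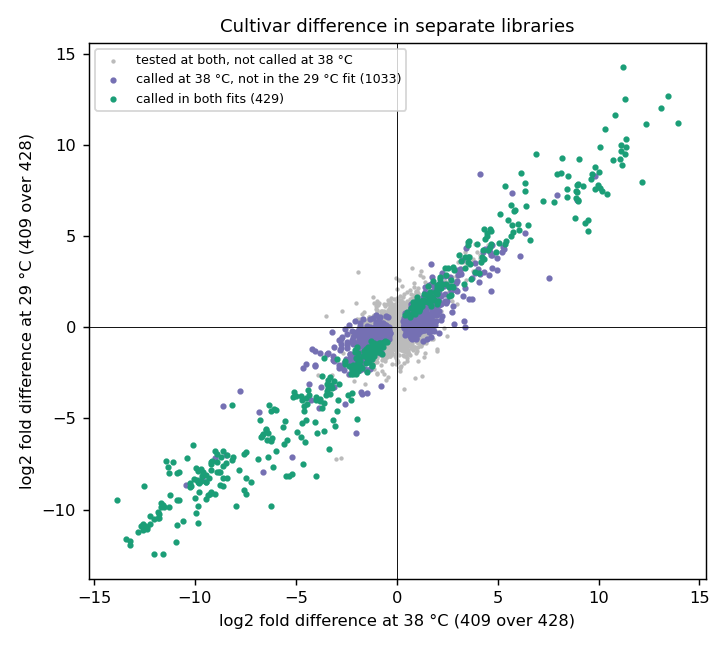
Each point is a gene tested at both temperatures, with the log2 fold difference of BR-IRGA 409 over IRGA 428 at 38 °C on the x axis and at 29 °C, from separate libraries, on the y axis. The 429 genes called in both fits (green) all lie at the lower left or upper right, where both differences have the same sign; genes called at 38 °C and not at 29 °C (purple) lie mostly near the centre.

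A cultivar difference at 38 °C is particular to heat only where it differs from that at 29 °C, and this was tested over all 12 libraries. Of 22321 genes, 1 was called (0.00448%), and 1236 (5.54%) had an unadjusted p below 0.05 (edgeR's quasi-likelihood test). DESeq2 called 42 and limma-voom 0, and edgeR called 0 without IRGA 428 replicate 3 at 38 °C or without any 1 of the BR-IRGA 409 libraries at 29 °C. The gene was MH12g0324600, lower in BR-IRGA 409 at both temperatures. At 38 °C it had 128, 137 and 229 counts in BR-IRGA 409 (3.38, 2.97 and 3.15 CPM) and 394, 618 and 696 counts in IRGA 428 (23.5, 29.1 and 25.3 CPM). Its log2 difference was −3.04 at 38 °C (SE 0.13) and −5.44 at 29 °C (SE 0.21), where BR-IRGA 409 had 4, 10 and 4 counts. For the other genes the difference between temperatures did not pass the threshold, which does not show that the cultivars differed equally at both. IRGA 428 replicate 1 at 38 °C was closer to IRGA 428 control replicate 3 than to its own group (biological coefficient of variation 0.0792). Leaving out either of these libraries alone gave 1 called gene. No fit of this contrast left out both, so how far the pair affects the count was not tested.

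The spread within IRGA 428 came largely with replicate 1. Among the 19526 genes with at least 1 CPM in both cultivars, the 3 libraries spanned over 2-fold for 10.3% in IRGA 428 and 5.51% in BR-IRGA 409. For the pair of IRGA 428 replicates 2 and 3 that share was 1.51%, against 7.48% and 7.45% for the pairs with replicate 1. The BR-IRGA 409 pairs lay at 4.54% (replicates 1 and 2), 2.51% (1 and 3) and 1.04% (2 and 3), so that IRGA 428 without replicate 1 was within their range. Without IRGA 428 replicate 1, 2249 genes were called, 1170 higher in BR-IRGA 409 and 1079 in IRGA 428. Of the 1724 genes, 1517 (88.0%) were among them, which is 67.5% of the longer list, and none of the 1517 had changed direction. Of the 2249, 1362 reached 2-fold and 887 did not.

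The count of called genes was lower when other libraries were left out. It was 920 without IRGA 428 replicate 2, 895 without IRGA 428 replicate 3 and 776 without BR-IRGA 409 replicate 3. A set of 691 genes (40.1% of the 1724) was called in each of the 6 fits that left out 1 library, 311 higher in BR-IRGA 409 and 380 in IRGA 428. Of these 691, 92.5% differed by at least 2-fold, against 50.4% of the 1033 genes that lost their call in at least 1 such fit. Their median absolute log2 differences were 3.62 and 1.005. Staying called with 1 library fewer favours large differences, so these contrasts largely follow from how the sets were formed. With edgeR, DESeq2 and limma-voom fitted to the same tested genes, 1629 of the 1724 (94.5%) were called by all 3 tools.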

How the data were processed

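The authors deposited raw read counts for each gene, with a file for every library, neither normalized nor pooled. Per the submitters' processing notes the tools were Trimmomatic 0.33, HISAT2 2.05 and HTSeq 0.6.1; their settings, the build and strand use are not stated in the sources at hand, so overlapping antisense genes may share reads. The 5 closing lines that name no gene entered neither library sizes nor tests: reads outside genes, with several alignments, not aligned or ambiguous together made up the reads not assigned to genes, and 76.8% ± 0.333 (SD, n = 3) of reads in BR-IRGA 409 and 77.4% ± 1.43 in IRGA 428 were assigned. Of the 57174 gene IDs, 0 matched the reference table.

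The tests used edgeR 4.0.16 under R 4.3.3 (filterByExpr, trimmed mean of M-values, robust quasi-likelihood F-test, Benjamini-Hochberg adjustment), fitted to the 6 libraries at 38 °C only. The 29 °C libraries were fitted apart in the same way, and the difference between temperatures was tested in a fit of all 12. CPM values use the scaled library sizes of each fit. Groups and replicate numbers came from the sample titles. Per-library measures went through exact permutation tests (two-sided). The labels give 2 plants per library and do not say whether replicates were grown apart, so p-values measure the spread between these libraries. The alternatives tried were limma-voom (limma 3.58.1), DESeq2 1.42.0, other scalings, filters and thresholds, a 12-library fit, equal depth, a replicate block and leaving out each library. The model was also run on simulated counts with the same spread for every gene and library. The outcome is not given here, and that run does not vouch for the calls in these libraries. The comparison, the rule for naming genes and the classes were chosen with earlier results of these data known. Lists by gene function, planned for the case of named IDs, could not be used.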

Additional observations from a re-analysis of the deposited data

Results flagged for a closer look

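A difference between groups picked out 1 gene. The cultivar difference of MH12g0324600 was larger at 29 °C than at 38 °C, by 2.43 on the log2 scale (SE 0.23, edgeR adjusted p = 0.00955 over 22321 genes), and all 3 BR-IRGA 409 libraries at 38 °C (2.97 to 3.38 CPM) lay above all 3 at 29 °C (0.515 to 0.683 CPM). The lower level rested on 4, 10 and 4 counts. Groups of 3 libraries were not tested for outlying ones.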

How the results depend on the processing

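The 4 named genes, chosen for large differences in these libraries, kept direction and call in all 17 alternatives (highest adjusted p 0.0175). Of the 17, 10 kept the count of 1724 called genes within 1.5 times. Counts outside that range are given as total, higher in BR-IRGA 409, higher in IRGA 428; the cause was not tested where the setting itself does not fix it. DESeq2 gave 3178, 1787 and 1391. An edgeR adjusted p below 0.01 gave 726, 328 and 398, with 656 at 2-fold or more against 1160, and a test against 1.5-fold (glmTreat) gave 828, 382 and 446. Leaving out each library gave totals of 776 to 2249, with 351 to 1170 higher in BR-IRGA 409, 425 to 1079 higher in IRGA 428 and 703 to 1362 at 2-fold or more. At equal depth 1437 genes were called, and a fit of all 12 libraries called 1458. No pairing by equal replicate numbers was seen: deviations from the cultivar means correlated at −0.336, −0.351 and 0.0932. Of 6 libraries, 1 correlated best with its own number. With 3 libraries per cultivar these values do not settle whether the libraries were paired. The replicate block gave 493, 209 and 284 called genes, 468 of them at 2-fold or more. For the difference between temperatures, DESeq2 called 42 genes, limma-voom 0 and the replicate block 0, and leaving out each library gave 0 to 2 against 1. The count was 0 without IRGA 428 replicate 3 at 38 °C or without any 1 BR-IRGA 409 library at 29 °C. Of genes not called below 1 CPM, 12.4% had an interval inside 2-fold; depth and spread between libraries both enter it.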
